A study of Mus musculus with 30 samples.

Results

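The glutathione S-transferases described here are 10 genes of the mouse transcriptome: Gstm1, Gstm5, Gsto1, Gstp1, Gsta4, Gstt2, Gstz1 and the microsomal transferases Mgst1, Mgst2 and Mgst3. They were taken by gene symbol from a table of 55401 genes counted in 30 libraries, and all 10 had a row. The cells were a mouse B-cell lymphoma line of the genotype Eµ-Myc; p19ARF -/-, in which an immunoglobulin enhancer drives the Myc oncogene and the tumor suppressor p19ARF is missing. Both alterations were shared by every group. The lines labelled Paclitaxel resistant (17 libraries) had grown through repeated weekly pulses of paclitaxel, a drug that stabilizes microtubules. The lines labelled DMSO control (12 libraries) had gone through the same pulses with the solvent, and 1 library was from the parental line with no treatment given. Each library was 1 line, and all lines were derived from the same lymphoma line, so the groups hold parallel selections in 1 genetic background. Whether lines descend from the same altered cells, present before the pulses began, was not tested.

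Glutathione S-transferases join the tripeptide glutathione to electrophilic compounds, which marks them for export from the cell. The cytosolic enzymes fall into classes named by Greek letters (mu, pi, alpha, theta, zeta and omega), and a separate family of small membrane proteins, the microsomal transferases, acts on lipid substrates and peroxides. The family is best known for its part in handling toxic chemicals, and its level in tumors has been studied in connection with drug resistance.

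Library totals ran from 1053948 to 6739131 counts in the DMSO control group and from 480919 to 6682169 in the Paclitaxel resistant group, and the library labelled Parental held 1851837. Of the 8 B-cell markers checked, 7 were counted in all 30 libraries, and the 8 together had a summed level of 2699 to 5024 counts per 1000000 (CPM) in the DMSO control libraries and 1743 to 4561 in the Paclitaxel resistant libraries. The eighth, Ms4a1, which encodes CD20, was at 0 in 1 library, and its median was 142 CPM in the DMSO control and 12.5 in the Paclitaxel resistant libraries. Its log2 fold change was -1.84 (edgeR adjusted p = 0.128), and -2.37 (edgeR adjusted p = 0.0483) without the pair of libraries labelled DMSO 12 and Pac H9, and its part in the members' results was not tested. The erythroid markers summed to at most 0.490 CPM and the fibroblast markers to at most 0.524 CPM in any library. The T-cell markers summed to at most 19.5 CPM and the myeloid markers to at most 50.6 CPM, a level that Itgam reached by itself, and Cd3e, Cd4, Adgre1 and S100a8 were at 0 in all 30 libraries. Over 9438 genes, transferases left out, 2 libraries labelled DMSO control (DMSO 11 and DMSO 12) correlated better with the mean of the Paclitaxel resistant group than with that of the other DMSO controls. Conversely, the libraries labelled Pac C1, which was the smallest, and Pac H9 correlated better with the DMSO control mean, and so did the library labelled Parental. Of these libraries DMSO 12 and Pac H9 had the widest margin in their group, so fold changes of the members are given also without that pair (27 libraries). The pair was chosen from expression profiles, so a larger difference without it is not independent evidence. Whether the labels of these 2 libraries alone, or all labels from DMSO 12 on, are displaced by 1 library was not tested. In the latter case the other Paclitaxel resistant libraries would keep their treatment, but their line names and the label Parental would belong to other libraries. Values given by line name, and those of the library labelled Parental, therefore hold for the labels as deposited.

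Of the 10 members, 7 passed the filter on low counts and were tested between the Paclitaxel resistant and DMSO control groups, and 2 differed at an adjusted p under 0.01 in edgeR's quasi-likelihood test. Gstm1 rose and Gsto1 fell. Of all 9445 genes tested, 208 passed the same threshold (2.20%), 94 higher (0.995%) and 114 lower (1.21%) in the Paclitaxel resistant group. Without the libraries labelled DMSO 12 and Pac H9 the same 2 members passed, beside 321 of 9567 genes (3.36%). The 7 tested members had a median log2 fold change of -0.29, and 3 of them were positive. The median over all genes tested was 0.07. In bulk RNA, fewer cells that express a gene and less of its RNA per cell cannot be told apart.

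Promoter windows of the RefSeq annotation (GRCm38.p6, 250 bases before to 50 after a start site) were found for 8 of the 10 members, 11 windows in all. They were searched on both strands for TGACNNNGC, the core of the antioxidant response element through which Nrf2 acts on many transferase genes, for TGANTCA, the AP-1 site, and for CACGTG, the E-box that Myc binds. No motif overlapped another. The 4 windows below are those of the members that rose and fell and of 2 members with a match. The part in capitals is the match, and a window wholly in lower case holds none.
Gstm1, chr3:108017924-108018223, minus strand: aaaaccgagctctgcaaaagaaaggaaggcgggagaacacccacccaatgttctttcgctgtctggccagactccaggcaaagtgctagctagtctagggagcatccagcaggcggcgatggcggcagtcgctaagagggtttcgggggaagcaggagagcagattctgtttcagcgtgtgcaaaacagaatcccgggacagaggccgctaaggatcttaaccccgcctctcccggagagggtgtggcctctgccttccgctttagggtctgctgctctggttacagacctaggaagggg
Gsto1, chr19:47854723-47855022, plus strand: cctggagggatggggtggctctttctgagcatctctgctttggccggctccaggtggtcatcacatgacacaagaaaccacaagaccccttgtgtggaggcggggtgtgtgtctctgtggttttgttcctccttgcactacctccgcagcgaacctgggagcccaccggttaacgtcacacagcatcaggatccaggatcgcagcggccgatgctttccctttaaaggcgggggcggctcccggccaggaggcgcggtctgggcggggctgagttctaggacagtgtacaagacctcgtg
Mgst1, chr6:138140277-138140576, plus strand: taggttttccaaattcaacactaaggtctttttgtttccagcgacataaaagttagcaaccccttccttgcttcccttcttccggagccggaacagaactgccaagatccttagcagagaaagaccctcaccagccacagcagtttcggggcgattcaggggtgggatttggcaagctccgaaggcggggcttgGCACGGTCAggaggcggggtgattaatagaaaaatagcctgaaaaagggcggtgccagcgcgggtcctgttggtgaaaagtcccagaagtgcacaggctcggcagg
Gstp1, chr19:4037863-4038162, minus strand: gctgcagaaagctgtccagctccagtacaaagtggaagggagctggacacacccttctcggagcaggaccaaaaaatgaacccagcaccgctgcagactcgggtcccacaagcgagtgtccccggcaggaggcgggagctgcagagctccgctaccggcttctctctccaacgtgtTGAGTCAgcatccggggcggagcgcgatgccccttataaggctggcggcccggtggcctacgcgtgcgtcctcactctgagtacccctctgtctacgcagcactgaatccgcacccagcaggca
In Mgst1 the match reads TGACNNNGC on the opposite strand and begins at -56 relative to the start site, and in Gstp1 a TGANTCA begins at -74. The second window of Gstm1 held no match either. Over all members TGACNNNGC was found in 2 of the 11 windows (Gstm5 and Mgst1) against 12.4% of all 32851 promoter windows, TGANTCA in 3 (Gstm5, Gstp1 and Mgst2) against 7.81%, and CACGTG in 0 against 7.15%. A match of these letters is a description of the window and was not tested as a site.

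Gstm1 (ENSMUSG00000058135.12), a mu-class enzyme that conjugates glutathione to a wide range of electrophiles, lies on chromosome 3 of GRCm38 from 108012255 to 108017973 on the minus strand. All levels that follow are CPM scaled by the trimmed mean of M values (TMM), which sets libraries side by side but says nothing of levels between genes. In the 12 DMSO control libraries Gstm1 was at 0.749 in the lowest, 2.33 in the median and 20.2 in the highest. In the 17 Paclitaxel resistant libraries it was at 1.57 in the lowest, 29.4 in the median and 79.8 in the highest. The library labelled Parental stood at 8.95.

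The highest DMSO control value was that of the library labelled DMSO 12, and the next was 9.93. Of the Paclitaxel resistant libraries, 10 were above every DMSO control, and 16 were above the DMSO control median. Against the DMSO controls without DMSO 12, the Paclitaxel resistant libraries parted: 13 were higher than all of them, from 12.2 CPM up, and 4 lay inside their range, at 4.01 CPM or less. Those 4 were Pac A6 (2.90), Pac B2 (4.01), Pac H3 (3.93) and Pac H8 (1.57). The library labelled Pac H9 was among the 13, and with it left out as well, 12 of 16 Paclitaxel resistant libraries were higher. The highest 3 were Pac D4 (79.8), Pac C11 (70.0) and Pac G9 (65.1).

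In the edgeR fit Gstm1 was higher in the Paclitaxel resistant group by 2.91 on the log2 scale (SE 0.559, adjusted p = 0.00134, n = 12 and 17), a 7.49-fold difference. Mean levels were 32.0 ± 25.3 (SD, n = 17) and 4.79 ± 5.62 CPM (SD, n = 12). Without the libraries labelled DMSO 12 and Pac H9 the log2 fold change was 3.44 (SE 0.559, edgeR adjusted p = 0.000154). A permutation test of the mean log2 CPM gave p = 0.00022 (two-sided, 100000 permutations, n = 12 and 17). The spread among the Paclitaxel resistant lines was wide, with a coefficient of variation of 79.2%, and 117% among the DMSO controls. The authors split the resistant lines into groups by drug sensitivity and reported a difference in Gstm1 between them. The labels give the treatment only, so these groups were pooled here and not compared.

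**Figure D1:**
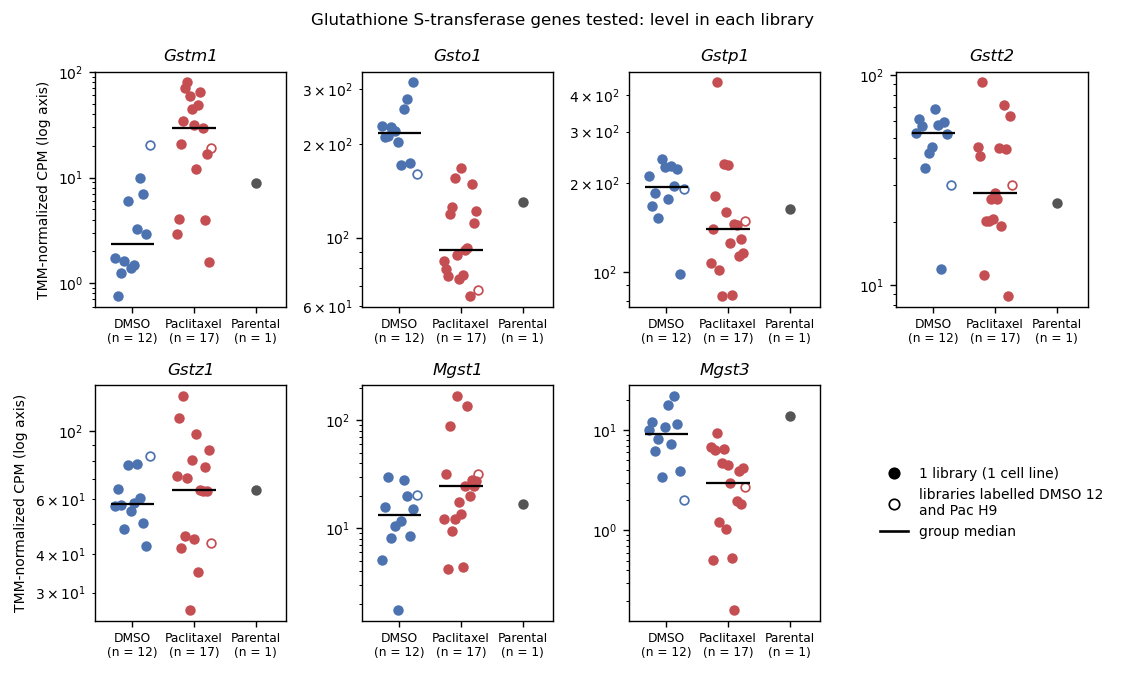
Level of each tested transferase gene in TMM-normalized CPM (log axis), 1 point per library, with the group median as a line. Open points are the libraries labelled DMSO 12 and Pac H9. Gstm1 was above every DMSO control in 10 of 17 Paclitaxel resistant libraries, and Gsto1 was below every DMSO control in 16.

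The mu-class genes sit side by side on chromosome 3, and reads from such similar genes can be divided or lost in counting, so the level of Gstm1 against its relatives is uncertain. Over the 30 libraries Gstm1 had 2289 counts. Gstm4 had 185 in 20 libraries, Gstm3 had 7, Gstm6 had 3, and Gstm2 and Gstm7 had 0. Gstm4 did not pass the low-count filter: its level was 1.48 CPM in the median DMSO control and 1.23 in the median Paclitaxel resistant library. Gstm5 (ENSMUSG00000004032.10, chromosome 3, 107895821 to 107898686), the other mu-class member, had no count in any of the 30 libraries. A count of 0 allows up to 0.0613 CPM over the DMSO control group and 0.0549 CPM over the Paclitaxel resistant group, which covers counting error only.

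As a group, the genes of chromosome 3 were near the DMSO control level in most libraries. Their median, as the log2 difference from the DMSO control mean, was -0.07 to 0.48 in the Paclitaxel resistant libraries, with the highest values in Pac D10 (0.48) and Pac E1 (0.43), and the library labelled DMSO 12 stood at 0.47. The other 447 tested genes of chromosome 3 had a median log2 fold change of 0.16 between the groups, and 1 of them had a larger one than Gstm1. The 21 tested genes within 1 Mb of Gstm1 had a median of 0.37, and 0 of them passed the threshold. Their part in the level of Gstm1 was not tested.

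The 5 genes whose levels followed Gstm1 most closely over the 30 libraries, by Spearman's rho of log2 CPM, were Klhl7 (0.758), Zeb1 (0.757), Abcb4 (0.756), Bmp2k (0.742) and Nat9 (0.724). The values are a description, since these points share the difference between the groups. Abcb4 encodes an ABC transporter closely related to P-glycoprotein, and Zeb1 a transcriptional repressor. Klhl7, Abcb4 and Bmp2k lie on chromosome 5, whose 618 tested genes had the highest median log2 fold change of any chromosome, 0.24. Abcb4 was at a mean of 0.206 CPM in the DMSO controls and 9.77 CPM in the Paclitaxel resistant libraries, and Zeb1 at 1.96 and 13.7. Within the 17 Paclitaxel resistant libraries alone the rho with Gstm1 was 0.650 for Klhl7, 0.740 for Zeb1, 0.742 for Abcb4, 0.760 for Bmp2k and 0.591 for Nat9. Within the 12 DMSO controls it was 0.413 for Klhl7, 0.0746 for Zeb1, 0.133 for Abcb4, 0.741 for Bmp2k and 0.0629 for Nat9.

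Gsto1 (ENSMUSG00000025068.8), the omega-class enzyme, reduces dehydroascorbate and disulfides with glutathione. The gene lies on chromosome 19 from 47854970 to 47864790 on the plus strand. Its level was 161 CPM in the lowest DMSO control library, 217 in the median and 316 in the highest. Among the Paclitaxel resistant libraries it was 64.7 in the lowest, 91.0 in the median and 168 in the highest, and the library labelled Parental stood at 130.0.

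Of the 17 Paclitaxel resistant libraries, 16 were below every DMSO control. The groups met only where the library labelled DMSO 12 (161) lay under Pac E1 (168). Without DMSO 12 and Pac H9 the groups did not overlap, which was so in the lower direction for 11 of 9445 genes tested (0.116%). The library labelled Parental, whose label is in doubt as described above, was below all 12 DMSO controls and above the Paclitaxel resistant median.

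Gsto1 fell by 1.11 on the log2 scale in the Paclitaxel resistant group (SE 0.144, edgeR adjusted p = 1.28e-05, n = 12 and 17), which is 2.16-fold lower, from 222 ± 45.6 (SD, n = 12) to 102 ± 32.4 CPM (SD, n = 17). Without DMSO 12 and Pac H9 the log2 fold change was -1.13 (SE 0.146, edgeR adjusted p = 7.45e-06). The permutation test gave p = 1e-05, the smallest that 100000 permutations can give. Its spread within groups was small, with a coefficient of variation of 20.5% in the DMSO controls and 31.6% in the Paclitaxel resistant libraries.

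**Figure D2:**
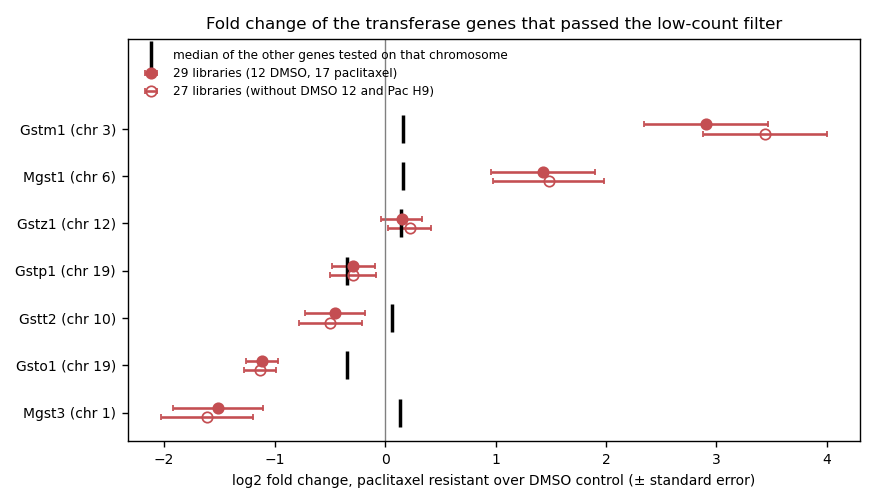
Log2 fold change of each tested transferase gene, Paclitaxel resistant over DMSO control, with its standard error, over 29 libraries (filled) and 27 (open). The black bar is the median of the other tested genes of the same chromosome, which was -0.34 for chromosome 19 and 0.16 for chromosome 3.

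Chromosome 19 as a whole was lower in the Paclitaxel resistant group. Its 357 tested genes had a median log2 fold change of -0.34, the lowest of the autosomes and of the X chromosome, and 37 of the 114 genes called lower anywhere were on it. Only 1 gene of chromosome 19 was called higher. Chromosome 9, with 22 genes called lower, came next, at a median of -0.17. The other 18 chromosomes had medians between -0.07 and 0.24.

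Library by library, the median of the other chromosome 19 genes, as the log2 difference from the DMSO control mean, was -0.58 to -0.07 in the 17 Paclitaxel resistant libraries, with a median of -0.46. In the DMSO controls it was -0.01 to 0.18, apart from the library labelled DMSO 12, at -0.51. The library labelled Parental was at -0.06. Gsto1 was further below the DMSO controls than its chromosome: its fold change was 0.77 log2 units under the chromosome median, and 22 of the other 356 chromosome 19 genes had a lower one. The 12 tested genes within 1 Mb of Gsto1 had a median of -0.35, and 1 of them passed the threshold.

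Lines differed in how far the chromosome and the gene were lowered. The chromosome was lowered least in Pac C3 (-0.07), Pac E1 (-0.11), Pac D4 (-0.15) and the library labelled Pac H9 (-0.19). Gsto1 was at -0.84 in Pac C3, -0.38 in Pac E1, the highest of its group, -0.57 in Pac D4 and -1.65 in Pac H9. Within the 17 Paclitaxel resistant libraries the Pearson's r of Gsto1 with the chromosome median was 0.385 (permutation p = 0.128) and the Spearman's rho 0.287 (permutation p = 0.265). Over the 12 DMSO controls r was 0.50 (permutation p = 0.098) and rho 0.203 (permutation p = 0.527). With the 2 libraries farthest from the median of the chromosome left out, r was 0.0577 and 0.134. Without the library labelled Pac H9 the Paclitaxel resistant r was 0.537 (permutation p = 0.0305, adjusted 0.288), and 0.289 with the 2 farthest of the other libraries left out as well. Without DMSO 12 the DMSO control r was 0.282 (permutation p = 0.401), and -0.414 with the 2 farthest left out as well. For the same relation of Gstm1 with chromosome 3, r was 0.503 (permutation p = 0.0372) and rho 0.60 (permutation p = 0.0121) in the Paclitaxel resistant libraries, and r stayed at 0.546 without the 2 farthest. In the DMSO controls that r was 0.689 (permutation p = 0.0132) and rho 0.343 (permutation p = 0.276), and r went to -0.12 without the 2 farthest, so it rested on them. None of the 14 relations, 7 members in both groups, passed after Benjamini-Hochberg adjustment, the lowest adjusted p being 0.184 for r and 0.170 for rho. These relations were chosen after the values had been seen, DNA copy number was not analysed here, and the part of the chromosome in the level of Gsto1 was not tested.

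**Figure D3:**
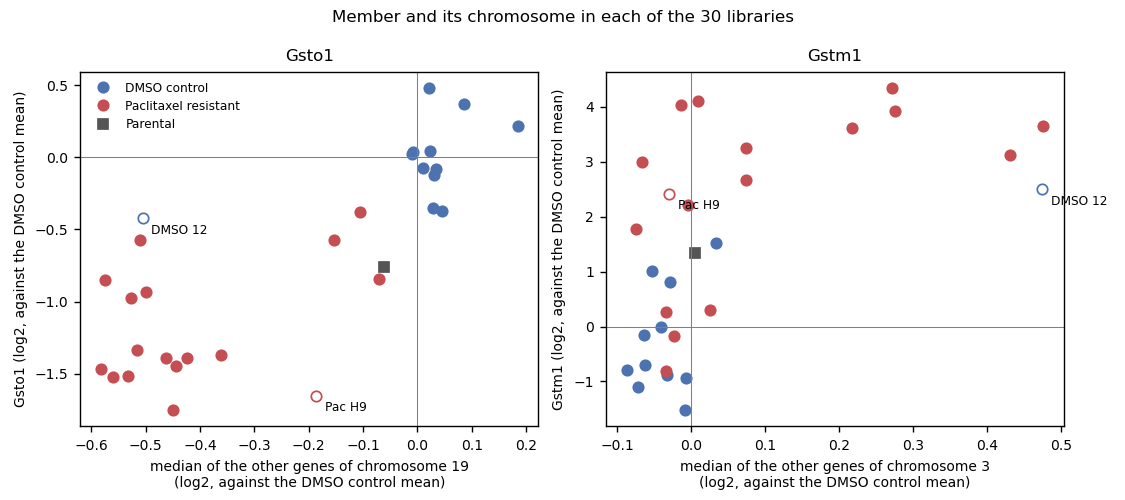
Left, Gsto1 against the median of the other tested genes of chromosome 19, and right, Gstm1 against that of chromosome 3, each as the log2 difference from the DMSO control mean, 1 point per library. Open points are the libraries labelled DMSO 12 and Pac H9. The Paclitaxel resistant libraries lie between -0.58 and -0.07 for chromosome 19, and DMSO 12 lies among them at -0.51.

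All 5 genes whose levels were most like those of Gsto1 over the 30 libraries are also on chromosome 19. They were Dpp3 (Spearman's rho 0.798), Ccdc86 (0.780), Dnajc4 (0.760), Npm3 (0.759) and Eif1ad (0.757). Again these are descriptions over libraries that share the group difference. Within the 17 Paclitaxel resistant libraries rho was between 0.186 (Ccdc86) and 0.632 (Dnajc4), and within the 12 DMSO controls between -0.168 (Dnajc4) and 0.510 (Eif1ad). Gsto2, the other omega-class gene, begins 743 bases after the end of Gsto1 on the same strand. It was at 14.04 CPM in the median DMSO control and 11.6 in the median Paclitaxel resistant library (log2 fold change -0.37, SE 0.336, edgeR adjusted p = 0.513).

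Mgst3 (ENSMUSG00000026688.5, chromosome 1, 167371966 to 167393841, minus strand) encodes a microsomal enzyme with transferase and peroxidase activity toward lipids. Its level was 2.02 CPM in the lowest DMSO control, 9.16 in the median and 21.9 in the highest. In the Paclitaxel resistant libraries it was 0.160 in the lowest, 2.99 in the median and 9.42 in the highest, and in the library labelled Parental 13.7. Of the Paclitaxel resistant libraries, 7 were below every DMSO control and 16 below the DMSO control median, although the groups overlapped. The lowest DMSO control was the library labelled DMSO 12.

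The log2 fold change of Mgst3 was -1.51 (SE 0.407), and its adjusted p of 0.0188 in edgeR's quasi-likelihood test missed the threshold of 0.01. It stayed above the threshold without DMSO 12 and Pac H9 (-1.61, SE 0.414, edgeR adjusted p = 0.0123). It was under it in edgeR's likelihood ratio test (adjusted p = 0.00542), in DESeq2 (adjusted p = 0.00605) and with library depth as a covariate (edgeR adjusted p = 0.00670). The permutation test, not adjusted for other genes, gave p = 0.00097. Counts were low, from 1 to 23 in the Paclitaxel resistant libraries. On chromosome 1 the other genes had a median log2 fold change of 0.13, and 1 of 562 had a lower one than Mgst3.

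Mgst1 (ENSMUSG00000008540.11, chromosome 6, 138140316 to 138156755, plus strand), a membrane enzyme of the endoplasmic reticulum and the outer mitochondrial membrane, had 1.75 CPM in the lowest DMSO control library, 13.3 in the median and 29.6 in the highest. The Paclitaxel resistant libraries ran from 4.18 over a median of 24.6 to 168, and the library labelled Parental was at 16.7. A few lines carried the high end: Pac D7 was at 168, Pac G9 at 137 and Pac C3 at 89.1, while the next was 32.1.

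The mean of Mgst1 was 38.6 ± 47.2 (SD, n = 17) against 14.5 ± 8.71 CPM (SD, n = 12), and the log2 fold change of 1.43 (SE 0.473) did not pass (edgeR adjusted p = 0.0577). Leaving out Pac D7 brought it to 1.08 (edgeR adjusted p = 0.12). The permutation test on log2 values gave p = 0.0662 (two-sided, 100000 permutations). The median of the other chromosome 6 genes, against the DMSO control mean, was 0.36 log2 units in Pac G9, -0.03 in Pac D7 and 0.03 in Pac C3. It was above that of Pac G9 in Pac C1 (0.58), Pac H8 (0.54), Pac H3 (0.51) and Pac A6 (0.45), where Mgst1 was at 4.18 CPM (from 2 counts, in the smallest library), 27.3, 27.95 and 12.3. Its part in the level of Mgst1 was not tested.

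**Figure D4:**
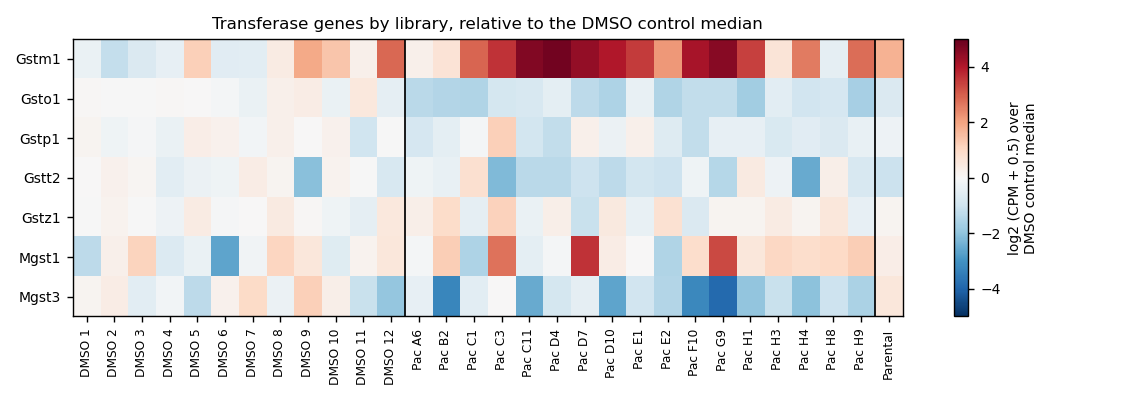
Level of the 7 tested transferase genes in each of the 30 libraries as log2 of (CPM + 0.5) over the DMSO control median. Vertical lines part the DMSO control, Paclitaxel resistant and Parental libraries. Pac D7, Pac G9 and Pac C3 stand out for Mgst1, and Pac A6, Pac B2, Pac H3 and Pac H8 are the Paclitaxel resistant libraries with low Gstm1.

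Mgst2 (ENSMUSG00000074604.9, chromosome 3, 51660360 to 51682677, plus strand), which can make leukotriene C4 from glutathione, did not pass the low-count filter. It had 10 counts in 5 of the 12 DMSO control libraries, at most 3 in any one, and 51 counts in 10 of the 17 Paclitaxel resistant libraries, at most 13. The highest level was that of Pac D7, at 3.68 CPM, and 7 Paclitaxel resistant libraries lay above every DMSO control. The library labelled Parental had 0 counts. A permutation test of the mean log2 CPM gave p = 0.0447 with a prior count of 2 and p = 0.0722 with 0.5 (two-sided, n = 12 and 17, not adjusted for other genes), and without DMSO 12 and Pac H9 p = 0.0983. Fitted without the filter, its edgeR adjusted p was 0.130.

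Gsta4 (ENSMUSG00000032348.6, chromosome 9, 78182774 to 78209349, plus strand), an alpha-class enzyme that clears the lipid aldehyde 4-hydroxynonenal, had 4 counts in all, 2 each in Pac C11 and Pac G9. The 12 DMSO control libraries and the library labelled Parental had none. The permutation test gave p = 0.499 (two-sided, 100000 permutations), and no fold is given for so few counts.

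Gstp1 (ENSMUSG00000060803.6, chromosome 19, 4035407 to 4037985, minus strand), the pi-class enzyme often raised in tumors, was at 98.4 CPM in the lowest DMSO control library, 194 in the median and 243 in the highest. The Paclitaxel resistant libraries lay between 82.6 and 441 with a median of 140.1, and the library labelled Parental was at 164. The groups overlapped widely. Pac C3 was at 441, and the next highest, Pac D7, at 233.

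With a log2 fold change of -0.29 (SE 0.193, edgeR adjusted p = 0.359) Gstp1 did not pass the test. Without Pac C3 the log2 fold change was -0.46 (edgeR adjusted p = 0.0587). With all libraries the value was 0.06 log2 units above the median of the other 356 genes of its chromosome. Reads of Gstp1 can also fall on near copies. The processed pseudogene Gstp-ps, on chromosome 1, had counts equal to 7.10 to 15.4% of those of Gstp1 in each library, with a median of 11.0%, and its own log2 fold change was -0.29 (SE 0.203, edgeR adjusted p = 0.385). It too was highest in Pac C3. Gstp2 had 3 counts over all libraries. The counts came from STAR, and how reads that match more than 1 of these genes were treated is not given in the sources used here, so the level of Gstp1 is uncertain.

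Gstt2 (ENSMUSG00000033318.7, chromosome 10, 75831114 to 75837424, minus strand) belongs to the theta class. It stood at 11.9 CPM in the lowest DMSO control, 52.6 in the median and 68.6 in the highest. The Paclitaxel resistant libraries had a lowest value of 8.81, a median of 27.5 and a highest value of 92.0, the last in Pac C1, and the library labelled Parental was at 24.5. Although 14 of the 17 were below the DMSO control median, the log2 fold change of -0.45 (SE 0.269, edgeR adjusted p = 0.296) did not pass.

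Gstz1 (ENSMUSG00000021033.11, chromosome 12, 87147165 to 87164723, plus strand), the zeta-class isomerase of tyrosine breakdown, was the member nearest to equal levels in both groups. It was at 42.6 CPM in the lowest DMSO control library, 57.8 in the median and 82.9 in the highest, and at 26.3, 64.3 and 129 in the Paclitaxel resistant libraries. The library labelled Parental was at 64.4. Its log2 fold change was 0.15 (SE 0.183, edgeR adjusted p = 0.636), against a median of 0.14 for the other genes of chromosome 12. The Paclitaxel resistant lines spread more, with 4 above and 3 below every DMSO control.

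No pair of tested members passed a test of correlation among lines of the same treatment. Over the 21 pairs of the 7 tested members, Pearson's r ran from -0.453 (Gstm1 and Gstz1) to 0.415 (Gstp1 and Mgst3) in the 17 Paclitaxel resistant libraries. In the 12 DMSO controls it ran from -0.60 (Gstm1 and Gstt2) to 0.604 (Gstp1 and Gstz1). All 42 values missed 0.05 after Benjamini-Hochberg adjustment over both groups, the lowest adjusted permutation p being 0.696 for r and 0.908 for rho. Before adjustment, 2 values of r had a permutation p under 0.05, both in the DMSO controls. They were Gstm1 with Gstt2 (r = -0.60, permutation p = 0.0367; rho = -0.524, permutation p = 0.085) and Gstp1 with Gstz1 (r = 0.604, permutation p = 0.0342; rho = 0.413, permutation p = 0.184). Without the 2 libraries farthest in the first gene these r were -0.126 and 0.109, so both rested on those libraries. In the Paclitaxel resistant libraries Gstm1 with Gstt2 had the same sign, and its rho alone had an unadjusted p under 0.05 (r = -0.439, permutation p = 0.0781; rho = -0.522, permutation p = 0.0338). Without the 2 libraries farthest in Gstm1 that r was -0.288. Gstm1 and Gsto1, the members that differed between groups, had an r of 0.0434 (permutation p = 0.870) and a rho of 0.191 (permutation p = 0.462) within the Paclitaxel resistant libraries.

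Of 33 other genes of the transferase family and its relatives, 31 were in the table, 10 were tested and 0 passed the threshold in edgeR's quasi-likelihood test, with 2 at an unadjusted p under 0.05. Over all genes 208 of 9445 (2.20%) were called and 2368 had an unadjusted p under 0.05, so a count of 0 among 10 is near the background. DESeq2 and edgeR's likelihood ratio test also called 0. The median log2 fold change was -0.14. The lowest p was that of Eef1g, a translation elongation factor subunit with a transferase-like domain that lies on chromosome 19 (log2 fold change -0.42, SE 0.133, edgeR adjusted p = 0.0445). The other was Clic4, a chloride channel-like protein with a transferase-like structure (log2 fold change 0.61, SE 0.279, edgeR adjusted p = 0.170). Without the library labelled DMSO 11 its log2 fold change was 1.02 (edgeR adjusted p = 0.00859), which passed. Gstk1, Gsta1, Gsta2 and Gsta3 had no counts in any library.

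Of 49 listed genes of the wider glutathione pathway, 48 were in the table and 31 were tested. In edgeR's quasi-likelihood test 0 passed, which is near the background of 2.20% over all genes. An unadjusted p under 0.05 was found for 5, beside 2368 of all 9445 genes tested, and the median log2 fold change was 0.09. DESeq2 and edgeR's likelihood ratio test each called 1, Gpx1, lower (adjusted p = 0.00773 and 0.00757), beside 571 and 448 of all genes.

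Gpx1, the main cytosolic glutathione peroxidase, was at 959 ± 214 (SD, n = 12) in the DMSO controls and 628 ± 202 CPM (SD, n = 17) in the Paclitaxel resistant libraries (log2 fold change -0.61, SE 0.164, edgeR adjusted p = 0.0183). Without the library labelled DMSO 11 it passed (log2 fold change -0.65, edgeR adjusted p = 0.00614). It lies on chromosome 9, the one with the next lowest median after chromosome 19. Gpx4, which reduces lipid peroxides, had a log2 fold change of 0.09 (SE 0.240, edgeR adjusted p = 0.847). Gsr, which regenerates glutathione, was at 7.70 ± 6.07 (SD, n = 12) and 14.9 ± 12.2 CPM (SD, n = 17) (0.95, SE 0.384, edgeR adjusted p = 0.118). G6pdx, the first enzyme of the pentose phosphate pathway and a source of the NADPH that Gsr uses, was at 143 ± 30.8 (SD, n = 12) and 92.2 ± 44.1 CPM (SD, n = 17) (-0.65, SE 0.218, edgeR adjusted p = 0.0627).

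For synthesis, the subunits of glutamate-cysteine ligase, Gclc and Gclm, had log2 fold changes of -0.29 (SE 0.323, edgeR adjusted p = 0.60) and 0.14 (SE 0.251, edgeR adjusted p = 0.769). Glutathione synthetase, Gss, had one of 0.32 (SE 0.194, edgeR adjusted p = 0.301). Abcc1, an exporter of glutathione conjugates, had one of 0.26 (SE 0.149, edgeR adjusted p = 0.273). Slc7a11, which brings in cystine for synthesis, had 4 counts in 2 libraries and was not tested.

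**Figure D5:**
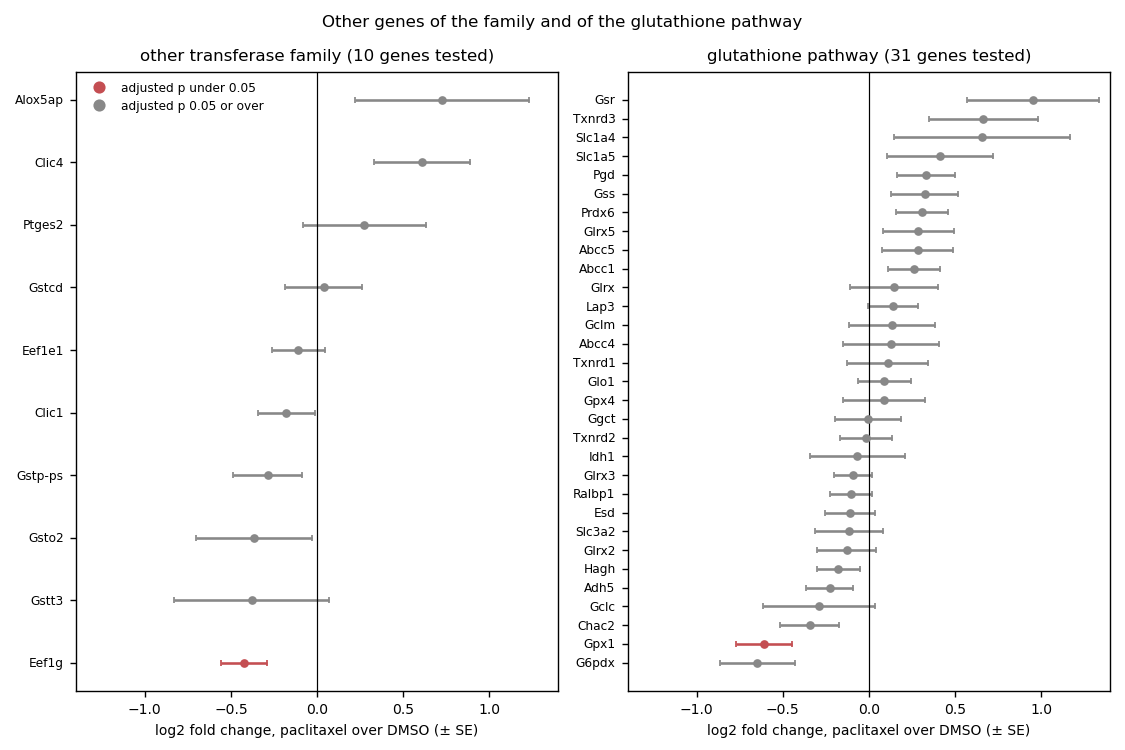
Log2 fold change, Paclitaxel resistant over DMSO control, with its standard error, of the 10 tested relatives of the transferases (left) and the 31 tested genes of the glutathione pathway (right). None reached an adjusted p under 0.01, and Gpx1 and Eef1g (red) had one under 0.05.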

How the data were processed

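Gene expression was measured at the 3′ end of transcripts, in 1 library for each of 30 cell lines. The authors added molecular identifiers, aligned reads to GRCm38 (mm10) with STAR 2.5.1b, took gene counts from it and deposited whole-number counts per gene without normalization. Whether identifiers were collapsed, the strand setting and which lines shared each of the 2 subpools of 15 are not given in the sources used here, so subpool and treatment cannot be told apart. Symbols and positions were from gencode M21, and 0 per-sample columns were left unused.

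Counts were filtered with filterByExpr, scaled by TMM and tested with the quasi-likelihood F test of edgeR 4.0.16 (R 4.3.3), adjusted over all genes by the Benjamini-Hochberg method at a threshold of 0.01, 12 DMSO control against 17 Paclitaxel resistant libraries. The SE is the log2 fold change over the square root of F. CPM were over 30 libraries, per 1000000 counts of the tested genes. Permutation tests (100000 draws, two-sided) and correlations used log2 CPM with a prior count of 2, in Python 3.11.15 with scipy 1.17.1. In data simulated for this comparison (9282 genes), 191 of 198 tested genes changed 4-fold were called, with 0 false calls. Genes with low mean counts were not among those changed, and no labels were displaced and no chromosome shifted as a whole. The simulation therefore does not cover low-count members, changes under 4-fold or doubtful labels. P-values measure the spread between lines, each taken as a separate culture.

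The members, lists and tests were chosen with earlier results of these data known. The text names all 10 members, Gstp-ps, pathway genes with set roles, listed genes past the threshold, and the 5 genes most like each called member. Eef1g, Clic4, Slc7a11, Gstk1, the other mu, alpha, pi and omega genes named, and the comparison with chromosomes were added after values were seen. DESeq2 1.42.0 and the other alternatives are given in the closing section.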

Additional observations from a re-analysis of the deposited data

How the results depend on the processing

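Gsto1 kept its direction and its call in all 41 settings, the reported one included (log2 fold change -1.17 to -1.01), as did Gstm1 in the 40 in which it was tested (2.74 to 3.44, highest adjusted p 0.00383 in edgeR's test, without the library labelled DMSO 4). Gstp1, Gstt2, Gstz1 and Mgst1 kept their direction and passed in none, and Mgst3 passed in 3. Thinned to 480919 counts per library, Gstm1 and Mgst3 no longer passed the low-count filter, so 1 member was called. Leaving out each library in turn gave 2 members called each time, 139 to 299 genes of all tested, 0 to 1 of the other family genes and 0 to 1 of the pathway genes. Both 1s, Clic4 and Gpx1, came without the library labelled DMSO 11, as did the 299.

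Over all genes the number called was 571 with DESeq2, 448 with the likelihood ratio test, 131 thinned, 321 without DMSO 12 and Pac H9, and 714 at an adjusted p under 0.05. At 0.05 the members called were 3, the other family genes 1 (Eef1g) and the pathway genes 1 (Gpx1), and DESeq2 and the likelihood ratio test each called 1 pathway gene. Scaled by library totals alone, the median log2 fold change of all genes moved from 0.07 to 0.19, and the calls were 191 higher and 88 lower against 94 and 114. The filter at 1 CPM in 12 libraries kept 11158 genes, more than the main filter. No pair of members passed in any of the 3 other settings. No paired analysis was possible because the groups' labels share no replicate numbers. Gsta4, Gstm5 and Mgst2 did not pass the low-count filter.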
